A study of Mus musculus with 2 samples.

Results

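The solute carriers examined here are the membrane transporters of plasma and organelle membranes that carry an Slc symbol. Members were all probe sets of the array whose annotation names a single gene with a symbol of the Slc series. The mitochondrial carriers of the Slc25a series, the insulin-responsive glucose transporter Slc2a4 and the amino acid transporter Slc7a10 were left out. This gave 350 probe sets of 226 genes, out of 12394 genes named by 1 probe set or more on the array. The symbol pattern also takes in Slc9a3r1, Slc9a3r2 and Slc4a1ap, which are not transporters, so 223 of the genes are carriers. The carriers were sorted into substrate classes by family and by the known substrate.

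Epididymal white adipose tissue of male mice on chow was profiled on Affymetrix arrays, with 1 array for a pool of wild-type mice and 1 for a pool of PPARβ/δ knockout mice, each made from the RNA of 5 animals. PPARβ/δ is a nuclear receptor activated by fatty acids. The wild-type animals were labelled 129S1/SvJae and 12 to 16 weeks old, the knockout animals Sv129/C57BL/6 mixed background and 12 weeks old, while the design text calls all animals 3 months old and the controls littermates, so strain and age may differ with genotype and cannot be told apart from it. The knockout is a whole-animal one as far as the labels say, and the sources used here do not give its allele. With 1 array per genotype there is no spread between replicates, and no test was possible. All differences below compare these 2 arrays, given as log2 knockout minus log2 wild type or as a fold, and the number of arrays limits their precision.

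Solute carriers move sugars, amino acids, ions, metals, vitamins and nucleotides across membranes, either down a gradient or coupled to sodium, protons or an exchanged solute. Several work as complexes, such as the amino acid transporters made of a heavy and a light chain. In fat cells, glucose carriers supply the glycerol backbone of triglyceride, monocarboxylate carriers move lactate and pyruvate, and fatty acid transport proteins activate incoming fatty acids. Sperm and the epididymal duct depend on a partly different set, which includes carriers of lactate, fructose, carnitine and bicarbonate.

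A gene was kept for comparison when a probe set reached an intensity of 32 (log2 of 5) on at least 1 array, and the kept probe set of highest mean intensity stands for it. Of the 226 genes, 90 (39.8%) were kept, against 6533 of all 12394 genes (52.7%). Of the 90, 72 reached the floor on both arrays, 6 only on the knockout array and 12 only on the wild-type array. The 136 genes below the floor were mostly dim, 96 of them under an intensity of 16 on both arrays, and the highest was Slc27a2, a fatty acid transport protein, at 30.6. The share kept differed widely between classes. It was 20 of 27 for metals and haem, 14 of 25 for nucleosides, nucleobases, nucleotide sugars and acetyl-CoA, 9 of 21 for sugars and 15 of 40 for amino acids and peptides, but 1 of 20 for organic ions and bile acids. No gene of the sodium-calcium exchangers Slc8, of the vesicular amine carriers Slc18 or of the thiamine and folate carriers Slc19 was kept, and of the neurotransmitter and osmolyte family Slc6 1 of 15 was.

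In the knockout pool, 7 of the 90 kept solute carriers (7.78%) were higher by 2-fold or more, where 13.7% of all kept genes were. A further 10 (11.1%) were lower by 2-fold or more, where 9.14% of all kept genes were. A gene that is bright on 1 array only passes the floor through that array. Among the 72 solute carriers that reached the floor on both arrays, 4 (5.56%) were at least 2-fold higher, where 7.91% of all such genes were, and 6 (8.33%) at least 2-fold lower, where 8.84% were. In this subset, formed after the values had been seen, neither share was above that of all genes, and the median was -0.07 against -0.12 over all such genes. The median log2 difference of the 90 was -0.12, against -0.08 over all kept genes, with quartiles of -0.55 and 0.24. By sign alone 53 genes were lower and 37 higher, while of all kept genes 55.5% were lower and 44.4% higher. The sign split depends on scaling, since centring the differences on the median of all kept genes gave 47 lower and 43 higher, and removal of the trend with intensity gave 43 lower and 47 higher. The 7 higher genes were Slc2a5, Slc2a3, Slc22a21, Slc16a7, Slc9b1, Slc1a1 and Slc39a6. The 10 lower genes were Slc43a3, Slc1a3, Slc7a9, Slc4a1, Slc27a1, Slc12a4, Slc35a4, Slc20a1, Slc12a2 and Slc2a1. For Slc9b1, Slc4a1 and Slc12a4 the fold was under 2 once the dim value was set to the floor, which left 14 genes, where 19.4% of all kept genes passed that rule.

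**Figure D1:**
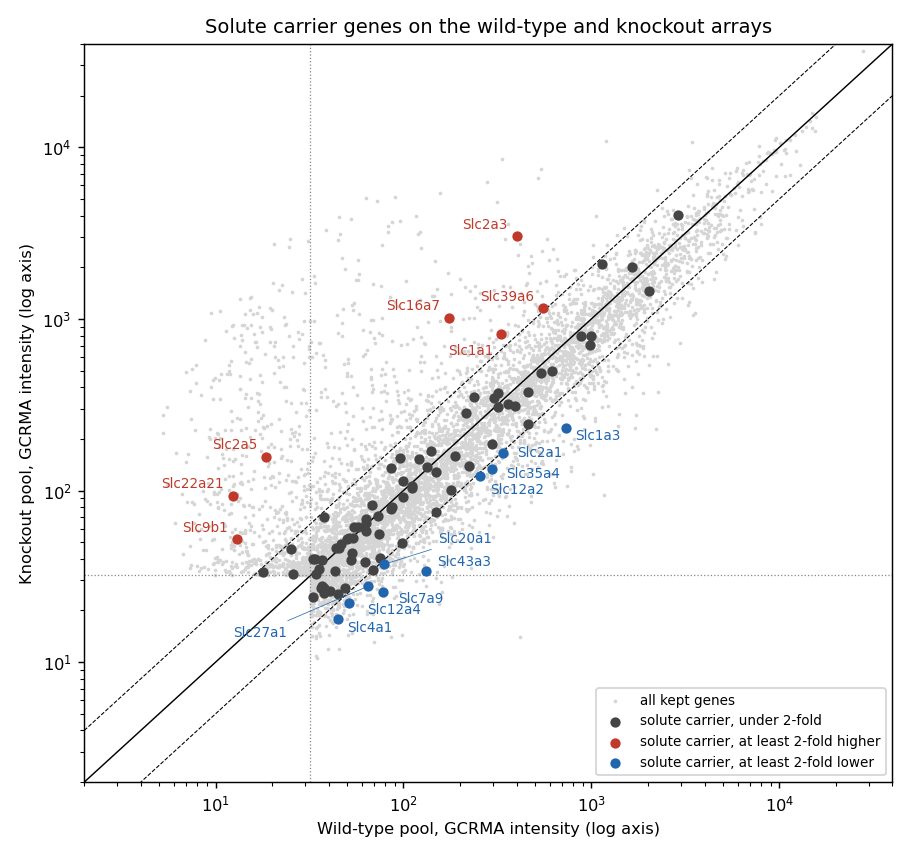
Intensity on the wild-type array (horizontal, log axis) against the knockout array (vertical, log axis) for the 6533 kept genes (grey) and the 90 kept solute carriers (coloured by call); the solid line marks equality, dashed lines 2-fold and dotted lines the floor of 32. The 5 genes farthest above the diagonal are Slc2a5, Slc2a3, Slc22a21, Slc16a7 and Slc9b1. Below it, Slc43a3, Slc1a3 and Slc7a9 are farthest, at folds of 3.88, 3.14 and 3.05 as measured.

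Markers of other cells differed between the same 2 pools. All 23 testis germ cell markers were higher in knockout by 2-fold or more (median 4.67), and their intensities summed to 3707 in wild type and 70720 in knockout. Of 12 epididymis markers 11 were higher, 1 of them at least 2-fold (median 0.45, sums 55550 and 65858). Of 13 adipocyte markers, all above the floor, 12 were lower, 7 of them at least 2-fold (median -1.09, sums 78247 and 50262). All 14 macrophage markers were lower (median -0.82, sums 5941 and 3553). Of 11 endothelial markers on the array 9 were kept, and 8 of the 9 were lower (median -1.04). Over all 11 the sums were 1479 and 768. Of 7 preadipocyte markers 4 were lower (median -0.57, sums 7148 and 5018). Some germ cell markers were below the floor in wild type, such as Acr at 7.14 and Sycp1 at 7.66. All 23 were above it in knockout. In whole tissue, fewer cells of a type and less RNA per cell cannot be told apart. The part of these cell types in the solute carrier differences was not tested.

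The sugar carriers differed in opposite directions within a single family. Slc2a3, the high-affinity glucose transporter of neurons and sperm, was at 401 in wild type and 3041 in knockout, 7.59-fold higher. All 4 of its probe sets pointed the same way, with log2 differences of 2.92, 3.01, 3.38 and 3.63. Slc2a5, the fructose transporter of intestine and sperm, was at 18.6, below the floor, and at 158, at least 4.93-fold higher. Slc2a1, the basal glucose transporter of most cells, was in contrast at 339 and 166, 2.05-fold lower, and its second kept probe set differed by -0.87. Slc2a10 was at 36.4 and 26.9, the latter below the floor. Slc2a3 and Slc2a5 were higher, and Slc2a1 lower, in the pool in which all 23 germ cell markers were higher. With 1 array per genotype, any gene higher in knockout shares that direction, and a link was not tested.

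The promoters of Slc2a1 and Slc2a5, which belong to the same family and lie on the same chromosome, are shown because their transcripts differed in opposite directions. Each covers 250 bases before to 50 after the annotated start, in RefSeq sequence of GRCm38.p6, 5′ to 3′ on the gene's strand. Capitals mark the GC box GGGCGG on either strand, the binding motif of Sp1-type factors. The Slc2a1 promoter is at chr4:119108495-119108794 (+ strand) and that of Slc2a5 at chr4:150119094-150119393 (+ strand).
Slc2a1: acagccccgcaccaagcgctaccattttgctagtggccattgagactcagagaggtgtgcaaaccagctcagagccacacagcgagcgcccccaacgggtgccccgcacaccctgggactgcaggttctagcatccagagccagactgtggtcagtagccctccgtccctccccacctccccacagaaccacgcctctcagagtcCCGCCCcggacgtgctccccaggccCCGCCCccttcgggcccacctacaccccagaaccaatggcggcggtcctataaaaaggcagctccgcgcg
Slc2a5: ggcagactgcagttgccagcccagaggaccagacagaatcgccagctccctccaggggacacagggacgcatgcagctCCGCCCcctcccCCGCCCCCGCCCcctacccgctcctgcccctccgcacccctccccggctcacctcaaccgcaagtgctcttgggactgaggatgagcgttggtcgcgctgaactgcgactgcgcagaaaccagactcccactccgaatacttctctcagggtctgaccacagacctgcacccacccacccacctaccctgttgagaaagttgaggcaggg
The first holds 2 GC boxes and the letters TATAAA, and the second holds 3 GC boxes, 2 of them directly adjacent, and no TATAAA. GC boxes were found in 35.7% of 32851 promoters of the same length, and TATAAA in 13.6%. Neither window holds the exact letters AGGTCANAGGTCA of the PPAR response element, searched on both strands, which 0.0396% of promoters hold. Nor does either hold the single repeat AGGTCA (16.3%), which is contained in that element. Inexact matches and sequence outside the windows were not searched. The absence of so rare a string, here or in the promoters counted below, cannot show that a gene lacks such an element. Of the 17 genes at least 2-fold different, 9 had an entry in the promoter table. Of the 13 promoters of these 9 genes, some of which have several starts, 10 held a GC box, 5 held AGGTCA and 0 held AGGTCANAGGTCA. Counted by gene, 8 of the 9 had a promoter with a GC box and 3 had one with AGGTCA.

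The remaining sugar carriers were all under 2-fold. Slc50a1, a sugar carrier of the Golgi, was at 148 and 74.9, 1.98-fold lower. Slc37a4, the glucose 6-phosphate carrier of the endoplasmic reticulum, was at 63.2 and 68.6, and the related Slc37a3 at 45.3 and 46.2. Slc5a2, the sodium-coupled glucose transporter of kidney, was at 99.6 and 113, and Slc45a3 at 68.3 and 82.8. The log2 differences of these last 4 genes lay between 0.03 and 0.28. Over the 9 kept sugar carriers the median was 0.12. Slc2a2, the liver glucose transporter, and Slc5a1, the intestinal sodium-coupled one, were among the 12 sugar carriers below the floor.

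Monocarboxylate carriers also split. Slc16a7, the high-affinity lactate and pyruvate transporter found on sperm tails, was at 175 in wild type and 1017 in knockout, 5.81-fold higher, on its only kept probe set. Slc16a1, the widespread lactate transporter, was at 2020 and 1451, a log2 difference of -0.48. Bsg (basigin), the chaperone that carries Slc16a1 to the cell surface, was at 1749 and 1935, and Emb (embigin), which can serve Slc16a7, at 45.5 and 101, 2.22-fold higher. The other 8 members of this class, among them the lactate exporter Slc16a3, were below the floor. Slc16a7 was higher, and Slc16a1 lower, in the pool with the higher germ cell markers, and a link was not tested here either.

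Of the amine, osmolyte, choline and carnitine carriers 7 of 21 were kept, with a median of -0.12. The 21 also count the urea carriers Slc14a1 and Slc14a2 and the vesicular glutamate carrier Slc17a6, all below the floor. Slc22a21, a carnitine transporter of testis, was at 12.4, below the floor, in wild type and at 93.5 in knockout, at least 2.92-fold higher. Its relative Slc22a5, the general carnitine transporter of the plasma membrane, was at 63.3 and 64.7, and its 2 kept probe sets differed by 0.03 and -0.26. Slc44a1, a choline transporter, was at 224 and 140, and its 2 kept probe sets agreed at -0.68 and -0.65. The related Slc44a2 was at 358 and 321, Slc44a3 at 43.0 and 34.1 and Slc44a4 at 111 and 106. All 4 kept Slc44 genes were therefore lower as measured, none by 2-fold, where 55.5% of all kept genes were lower. The difference of Slc44a4, -0.07, turned positive under centring and under trend removal. Slc6a8, the creatine transporter, was at 63.2 and 58.3, a difference of -0.12 that was positive with the trend removed.

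Among acid-base and anion exchangers 4 of 18 were kept. Slc9b1, a sodium-hydrogen exchanger known from sperm, was at 13.0, below the floor, in wild type and at 51.9 in knockout, at least 1.62-fold higher. Its other probe sets, below the floor on both arrays, differed by 0.32, -0.27 and 0.03. Slc4a1, the anion exchanger of red blood cells, was at 44.8 and 17.8, below the floor, at least 1.40-fold lower. Slc4a2, the anion exchanger of many tissues, was at 74.6 and 40.3, 1.85-fold lower. Slc4a4, a sodium bicarbonate cotransporter, was at 53.0 and 43.4. All 3 kept Slc4 genes were lower as measured, where 55.5% of all kept genes were, and remained lower under centring and trend removal. Of the carriers of this class below the floor, Slc26a3, Slc26a4 and Slc26a6 exchange chloride with other anions, and Slc26a8 is a testis anion transporter.

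**Figure D2:**
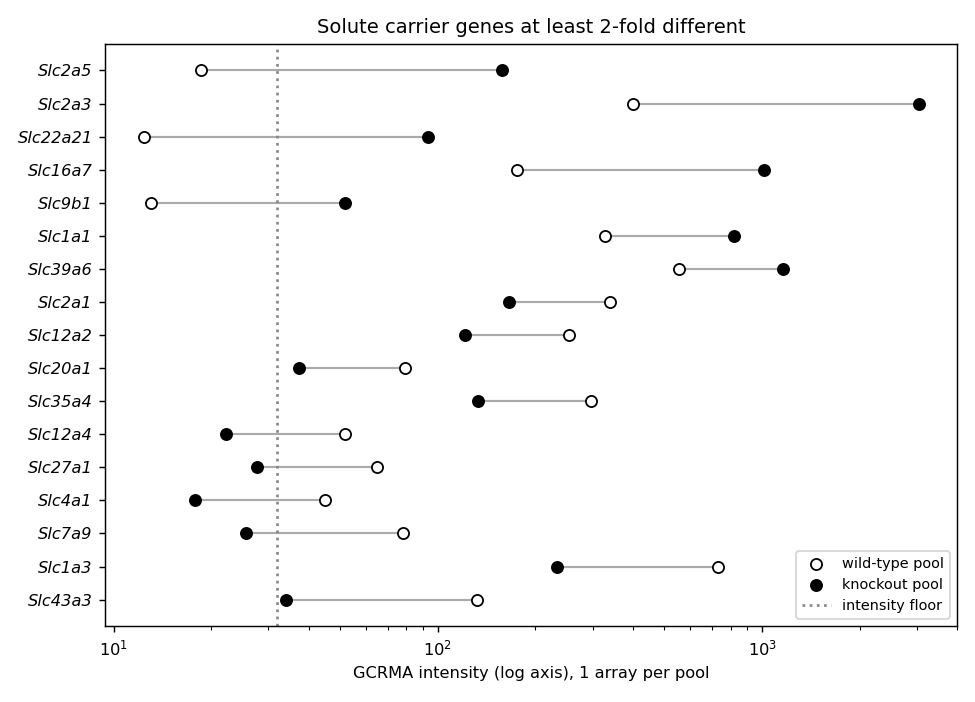
Intensity (log axis) in the wild-type pool (open) and the knockout pool (filled) for the 17 solute carriers at least 2-fold different, 1 array per pool, ordered by log2 difference; the dotted line is the floor of 32. Slc2a5, Slc22a21 and Slc9b1 start below the floor in wild type, and Slc12a4, Slc27a1, Slc4a1 and Slc7a9 end below it in knockout.

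Of 14 carriers of the cation-chloride and sodium-calcium class 4 were kept. All 4 were lower in the knockout pool as measured, where 55.5% of all kept genes were. They remained lower under centring and trend removal. Slc12a4 passed the floor through the wild-type array only, so its direction follows from the filter. Slc12a2, the sodium-potassium-chloride cotransporter that brings chloride into cells, was at 254 and 121, 2.10-fold lower, with a second probe set at -0.65. The potassium-chloride cotransporters work in the other direction in cell volume control. Of these, Slc12a4 was at 51.6 and 22.1, below the floor, at least 1.61-fold lower, and Slc12a7 was at 68.6 and 34.4, 1.995-fold lower. Slc24a3, a potassium-dependent sodium-calcium exchanger, was at 459 and 243, 1.89-fold lower. The 4 log2 differences lay within -1.22 and -0.92. Among kinases that regulate the Slc12 transporters, Stk39 was at 76.3 and 373, 4.89-fold higher, with a second probe set at 1.30. Oxsr1 was at 55.1 and 33.9, and Wnk1 at 1932 and 1887, with a second probe set at -0.66. In the same pool 12 of 13 adipocyte, all 14 macrophage, 8 of 9 kept endothelial and 4 of 7 preadipocyte markers were lower. All 23 germ cell and 11 of 12 epididymis markers were higher there, and a link to any of them was not tested.

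The amino acid and peptide carriers had a median of 0.19 over 15 kept genes, with 9 higher and 6 lower. That median was -0.05 without probe sets of shared sequence (12 genes) and -0.0035 over all 40 genes with no floor, so its direction is not firm. The glutamate carriers lay at the class's extremes. Slc1a3, a sodium-coupled glutamate transporter, was at 732 in wild type and 233 in knockout, 3.14-fold lower, and its 3 probe sets agreed, at -2.01, -1.65 and -1.50. Slc1a1, another sodium-coupled glutamate transporter, was at 328 and 819, 2.49-fold higher, with its 3 probe sets at 0.80, 1.16 and 1.32. The neutral amino acid carriers of the same family differed less. Slc1a5, the glutamine transporter, was at 993 and 798, and Slc1a4 at 33.8 and 40.0.

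The promoters of the oppositely differing pair Slc1a1 and Slc1a3 are shown in the same way. Slc1a1 is at chr19:28834885-28835184 (+ strand) and Slc1a3 at chr15:8710758-8711057 (- strand), both in GRCm38.p6 from RefSeq.
Slc1a1: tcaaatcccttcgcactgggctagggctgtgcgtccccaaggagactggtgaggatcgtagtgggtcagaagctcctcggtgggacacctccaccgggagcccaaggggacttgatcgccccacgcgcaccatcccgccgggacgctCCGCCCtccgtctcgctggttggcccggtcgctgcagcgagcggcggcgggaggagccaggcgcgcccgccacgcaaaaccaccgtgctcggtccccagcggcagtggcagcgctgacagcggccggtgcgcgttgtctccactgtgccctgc
Slc1a3: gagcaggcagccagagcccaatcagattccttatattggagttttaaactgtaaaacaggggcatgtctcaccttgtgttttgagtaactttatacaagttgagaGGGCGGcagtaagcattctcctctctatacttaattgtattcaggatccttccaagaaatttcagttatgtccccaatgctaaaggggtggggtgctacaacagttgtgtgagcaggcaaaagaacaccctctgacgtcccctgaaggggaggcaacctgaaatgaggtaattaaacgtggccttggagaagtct
The Slc1a1 window was 70.3% G and C with 32 CpG dinucleotides and 1 GC box. The Slc1a3 window was 45.3% G and C with 3 CpG dinucleotides, 1 GC box and the letters TATAAA on the opposite strand, where the median over all promoters was 7 CpG dinucleotides. Neither window holds AGGTCA or AGGTCANAGGTCA, with the same limit as above on the latter.

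The heterodimeric amino acid carriers pair a light chain with a glycoprotein heavy chain. Slc3a2, the heavy chain of the large neutral amino acid transporter, was at 1648 and 2005, and Slc7a5, its leucine-carrying light chain, at 1132 and 2086, 1.84-fold higher. Slc7a6, another light chain of Slc3a2, was at 54.3 and 61.5. Slc7a9, the cystine-carrying light chain of kidney and intestine, was at 78.1 and 25.6, below the floor, at least 2.44-fold lower, while its heavy chain partner Slc3a1 was below the floor on both arrays. Slc7a4, an orphan of the cationic amino acid family, was at 320 and 369, with its 3 kept probe sets between 0.21 and 0.39. The cationic amino acid transporters Slc7a1 and Slc7a2 and the cystine-glutamate exchanger Slc7a11 were below the floor.

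The sodium-coupled neutral amino acid carriers of the Slc38 family went both ways without reaching 2-fold. Slc38a5, which carries glutamine, was at 2891 and 4013, a log2 difference of 0.47. Slc38a2, which is induced by amino acid shortage, was at 983 and 702, and Slc38a4 at 33.1 and 24.1, below the floor. Slc38a10 was at 393 and 309, and all 6 of its kept probe sets were lower, from -0.93 to -0.25. Of the peptide carriers, Slc15a2 was at 37.6 and 70.5, 1.88-fold higher, and the lysosomal Slc15a4 at 302 and 345.

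Fatty acid transport proteins and phosphate carriers included 1 lower gene each by 2-fold. Slc27a1, the fatty acid transport protein of fat and muscle, was at 64.8 and 27.7, below the floor, at least 2.03-fold lower, whereas Slc27a4, another member of the family, was at 57.3 and 61.7. Slc20a1, a sodium-phosphate cotransporter, was at 79.0 and 37.2, 2.13-fold lower, and its paralogue Slc20a2 at 40.5 and 26.0, below the floor. Slc34a2, the epithelial sodium-phosphate cotransporter, was at 25.2, below the floor, and 45.8. Slc26a2, the sulphate transporter needed for cartilage matrix, was at 149 and 128. Slc27a1 was lower in the pool in which 12 of 13 adipocyte markers were lower, and a link was not tested.

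The zinc, iron, copper, manganese, magnesium and haem carriers had a median of -0.04 over 20 kept genes, and 1 of them (5.0%) differed by 2-fold, where 22.8% of all kept genes did. That gene was Slc39a6, a zinc importer of the plasma membrane, at 555 and 1161, 2.09-fold higher, with its second probe set at 0.93. Other zinc importers were lower or close to 0. Slc39a1 was at 44.9 and 24.9, below the floor, Slc39a8, which also carries manganese, at 541 and 481, and Slc39a7, which releases zinc from the endoplasmic reticulum, at 880 and 800. The difference of Slc39a7, -0.14, became positive with the trend removed.

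The zinc exporters Slc30a5 and Slc30a6, which form a heterodimer in the secretory pathway, differed in opposite directions, at 462 and 377 for the former and at 85.6 and 136 for the latter. Slc30a4, a vesicular zinc transporter, was at 296 and 186, and Slc30a1, the exporter of the plasma membrane, at 25.8, below the floor, and 32.7. Slc30a2, Slc30a7 and Slc30a9 differed by between -0.06 and 0.10. Metallothioneins, which bind zinc in the cytosol, were at 2211 and 2425 for Mt1 and at 3014 and 2275 for Mt2.

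Iron, copper, haem and magnesium carriers gave the following values. Slc11a1, the metal transporter of macrophage phagosomes, was at 98.4 and 49.7, 1.98-fold lower. All 14 macrophage markers were lower in the same pool, and a link was not tested. Slc11a2, the iron importer of intestine and endosomes, was at 46.6 and 48.9, and Slc40a1, the iron exporter ferroportin, was below the floor. Slc48a1, the endosomal haem transporter, was at 179 and 100.2, with probe sets at -0.84 and -0.43. Slc31a1, the copper importer, was at 96.2 and 154, and its 2 probe sets were higher by 0.68 and 0.37. Of the magnesium carriers, Slc41a2 was at 237 and 350, Slc41a3 at 17.8, below the floor, and 33.7, and Slc41a1 at 85.4 and 78.5.

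The nucleoside, nucleobase, nucleotide sugar and acetyl-CoA carriers held the gene with the lowest difference of all 90. Slc43a3, a purine nucleobase transporter, was at 132 in wild type and 34.0 in knockout, 3.88-fold lower, on its only kept probe set. Slc35a4, an orphan of the nucleotide sugar family, was at 296 and 133, 2.23-fold lower, with a second probe set at -0.63. The remaining 12 kept genes of this class were all under 2-fold. Slc35a1, the CMP-sialic acid carrier of the Golgi, was at 62.5 and 38.2, with probe sets at -0.71 and -0.60, and Slc35b1 was at 618 and 498. Slc35a5 was at 215 and 283, the highest difference in the class at 0.40. Slc35b2, which brings the sulphate donor for glycosaminoglycans into the Golgi, was at 49.8 and 52.5, and Slc35a2, the UDP-galactose carrier, at 188 and 159. Slc33a1, which carries acetyl-CoA into the endoplasmic reticulum, was at 121 and 154. Of the equilibrative nucleoside transporters, Slc29a1 was at 32.8 and 39.9 and the lysosomal Slc29a3 at 139 and 170.

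Vitamin carriers, organic ion carriers and the 3 proteins that are not carriers had no gene at 2-fold. Slc46a1, the proton-coupled folate transporter, was at 52.5 and 39.3, while its other probe set, below the floor on both arrays, differed by 0.39. Its relative Slc46a2 was at 37.8 and 26.9, below the floor, and Slc23a2, an ascorbate transporter, at 36.7 and 27.8, below the floor. Slc52a3, a riboflavin transporter, was at 43.9 and 46.0. Slc10a3, an orphan of the bile acid carrier family, was at 37.7 and 25.4, below the floor. Slc66a2, which was put in no class, was at 87.1 and 80.1. Slc9a3r1 and Slc9a3r2 are scaffolds of epithelial transporters. The former was at 99.4 and 91.2 and the latter at 48.9 and 27.1, below the floor, with probe sets from -1.44 to -0.15. Slc4a1ap was at 34.2 and 32.6.

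**Figure D3:**
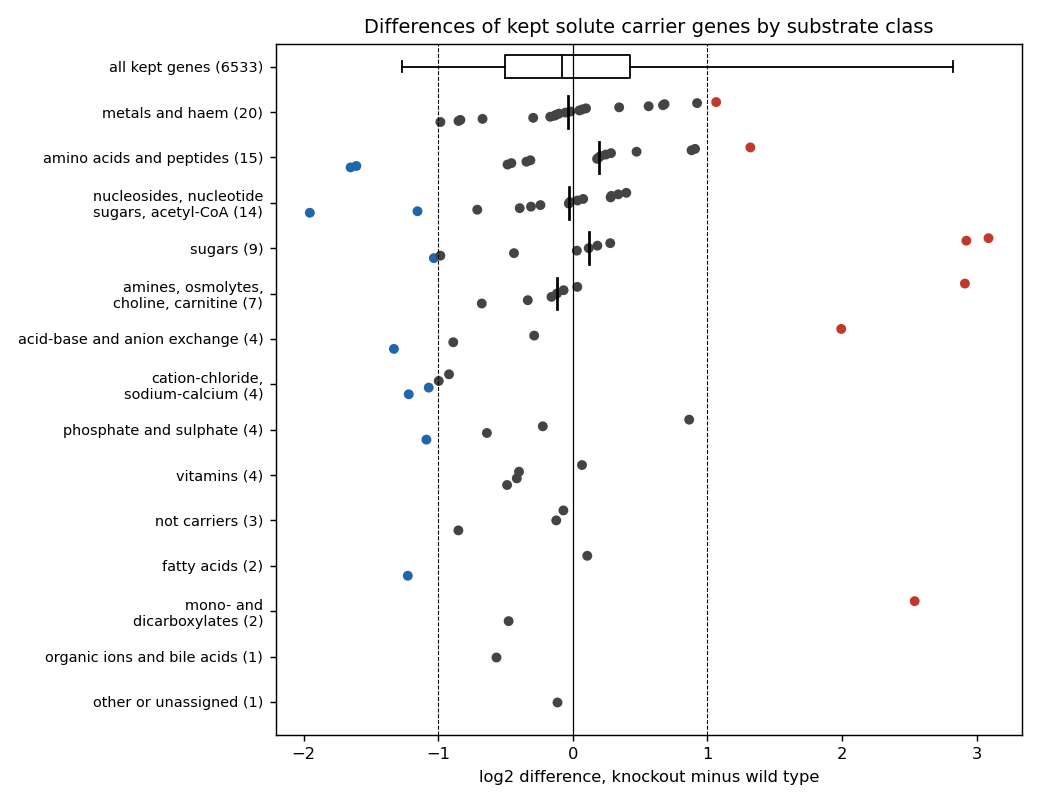
Log2 difference, knockout minus wild type, of each kept solute carrier (points) by substrate class, with the number of genes in brackets; black bars are medians of classes with at least 5 genes, red and blue points are at least 2-fold higher and lower, and the box shows the median, quartiles and 5th to 95th percentiles of all 6533 kept genes. The class medians lie between -0.12 and 0.19, and the points beyond 2 on the right are Slc2a3, Slc2a5, Slc22a21 and Slc16a7.

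Carriers were also grouped by the membrane they are known to reside in. These groups were drawn up after the values had been seen and were not tested. Of 22 organelle carriers of the endoplasmic reticulum, Golgi, vesicles and lysosomes 0 differed by 2-fold in either direction. All 22 reached the floor on both arrays. Of all genes that did, 7.91% were at least 2-fold higher and 8.84% at least 2-fold lower. The differences of the 22 carriers ran from -0.98 to 0.67, with a median of -0.06. The organelle carriers nearest to 2-fold were Slc11a1 and Slc50a1, both 1.98-fold lower. Of 46 plasma membrane carriers 6 (13.0%) were at least 2-fold higher, where 13.7% of all kept genes were. A further 8 (17.4%) were at least 2-fold lower, where 9.14% of all kept genes were. Of these 8, Slc7a9, Slc4a1 and Slc12a4 passed the floor through the wild-type array only. Of the 6 higher ones, Slc2a5 and Slc9b1 passed it through the knockout array only. The shares of the plasma membrane and organelle carriers therefore rest on unlike filters and cannot be set against each other. The 46 differences ran from -1.95 to 3.09, with a median of -0.16. The remaining 3 of the 17 genes, Slc22a21, Slc27a1 and Slc35a4, were among 19 genes whose location was taken as uncertain. Slc35a4 is of the same family as Slc35a1 and Slc35a2, which were placed in organelles. The 0 of 22 thus depends on this placement.

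Different probe sets of a gene mostly agreed. Of the 22 solute carriers with several kept probe sets, all probe sets pointed the same way in 20 (90.9%). Of all genes with several, 1557 of 2137 (72.9%) did so. The exceptions among the solute carriers were Slc22a5 and Slc9a3r1. In Slc35b4 and Slc31a2 the direction of 1 probe set each rests on a difference of -0.01. The SD between probe sets of a gene had a median of 0.21, against 0.25 over all genes. This agreement measures the technical error of the arrays only in part and says nothing of differences between animals. Among the 17 genes at least 2-fold different, 7 had several kept probe sets, and for Slc2a3 and Slc1a3 every kept probe set was beyond 2-fold. For Slc1a1, Slc39a6, Slc2a1, Slc12a2 and Slc35a4 1 probe set was under 2-fold in the same direction.

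**Figure D4:**
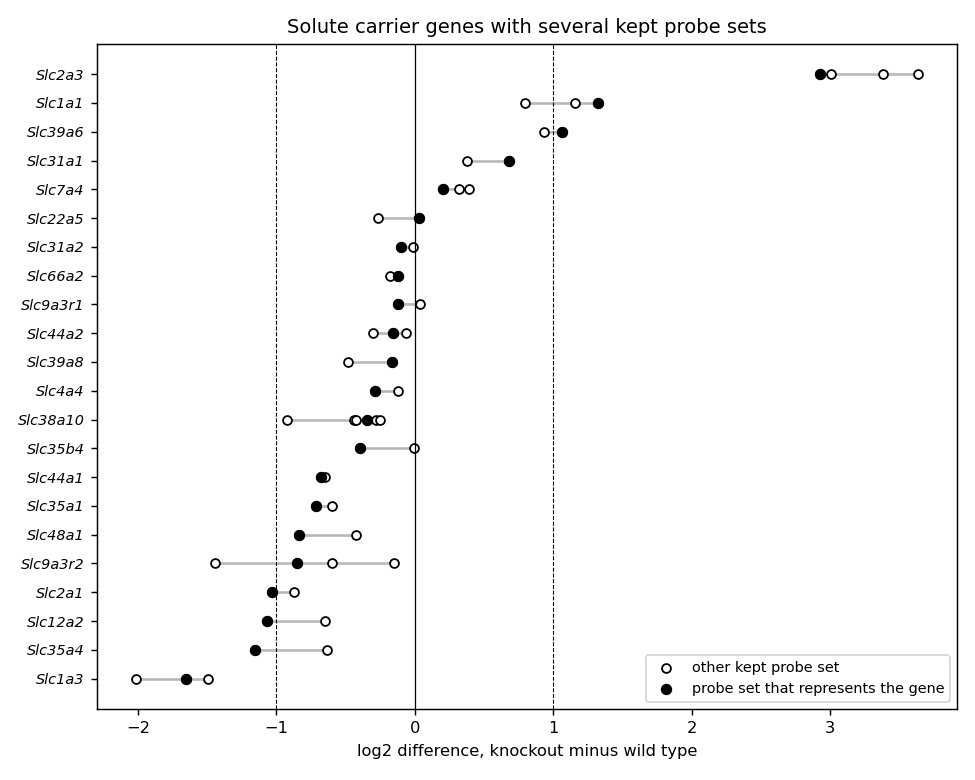
Log2 difference, knockout minus wild type, of every kept probe set of the 22 solute carriers with several, with the one that represents the gene filled; dashed lines mark 2-fold. All 4 probe sets of Slc2a3 lie beyond 2.9 and all 3 of Slc1a3 beyond 2-fold lower, while Slc9a3r2 has the widest spread.

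Proteins that work with solute carriers but have other symbols differed in both directions. Of 49 such partners 40 were on the array and 29 kept, of which 5 were at least 2-fold higher and 4 at least 2-fold lower, where 13.7% and 9.14% of all kept genes were, with a median of -0.22. The extremes were hexokinase Hk1, which traps the glucose that carriers admit, at 348 and 2938, 8.45-fold higher, and Fxyd1, a regulator of the sodium pump, at 291 and 103, 2.84-fold lower. The other higher partners, chosen like the rest of this paragraph after their values were seen, were Emb, Stk39, the chloride channel Cftr (25.1, below the floor, and 58.6) and the metal-responsive factor Mtf1 (21.3, below the floor, and 44.0). With the dim value at the floor the last pair were under 2-fold, at least 1.83-fold higher for Cftr and at least 1.38-fold for Mtf1. The other lower ones were the sodium pump subunit Atp1b1 (2373 and 950.2), its regulator Fxyd5 (75.6 and 33.2) and the water channel Aqp1 (994 and 471). A further sodium pump subunit, Atp1b3, was at 2361 and 4439, 1.88-fold higher. Txnip, which lowers glucose carriers at the cell surface, was at 3241 and 2108, and the hexokinase of fat and muscle, Hk2, at 1346 and 679, 1.98-fold lower.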

How the data were processed

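Total RNA of epididymal white adipose tissue, pooled from 5 animals per genotype, was hybridised to 1 array per pool. The deposited values are probe set intensities on a linear scale, which the authors obtained with GCRMA 2.20 according to the submitters' processing notes. The sources used here do not say which arrays entered the normalisation. GCRMA pulls dim signals together, so folds near the floor are uncertain, and intensities of different probe sets are not comparable as levels.

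Log2 was taken of the intensities. Of 22690 probe sets, 20393 named 1 gene; the others, 3 of them with a solute carrier symbol, were left out. Symbols updated by identifier through GRCm38.p6 gene records changed no member. The floor was log2 of 5, a stand-in for detection calls, and "at least" folds set the dim value to the floor. At least 2-fold is a log2 difference of at least 1 in size, as measured.

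Members, classes and lists were chosen with earlier results of these data known. Slc43a3 and Slc26a2 were moved to the class of their substrate after values were seen. The genes to be named were those at least 2-fold different and, in each class, those with the highest mean, the largest and the smallest difference; all others were chosen after their values were seen. The code was checked on simulated data. Alternatives were 3 other floor settings, dim values at the floor, centring, trend removal (lowess, fraction 0.3), probe set averaging, leaving out shared-sequence probe sets, updated symbols and, added after the data were seen, the floor on both arrays. Python 3.11.15, pandas 2.3.3, numpy 2.4.6 and statsmodels 0.14.6 were used.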

Additional observations from a re-analysis of the deposited data

How the results depend on the processing

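The numbers of solute carriers at least 2-fold higher and lower, their median and the class medians were recomputed under 10 alternatives. Leaving out probe sets of shared sequence lowered the count of lower genes from 10 to 6, with 66 instead of 90 genes compared; 9.85% of all genes kept in that setting were at least 2-fold lower. Requiring the floor on both arrays, an alternative chosen after seeing the data, lowered the lower genes to 6 and the higher ones from 7 to 4 of 72. No other count moved by over 1.5 times, and no class median by more than the median SD between probe sets of a gene, 0.25. Several class medians turned in sign: amino acids and peptides from 0.19 to -0.05 without shared-sequence probe sets and to -0.0035 with no floor, nucleosides and related from -0.03 to 0.06 under centring and 0.11 with the trend removed, metals and haem from -0.04 to 0.05 and 0.07 in the same settings, and amines and related from -0.12 to 0.01 with the trend removed, where the median of all 90 genes was 0.04. Of the 17 genes, 14 stayed at least 2-fold with a floor of log2 6 and with dim values at the floor (without Slc12a4, Slc4a1 and Slc9b1), 15 under centring (without Slc12a2 and Slc2a1, with Slc41a3 added), 14 with the trend removed (without Slc20a1 as well, with Slc7a5 and Slc15a2 added), 13 with probe sets averaged (without Slc12a2, Slc2a1, Slc35a4 and Slc39a6) and 12 without shared-sequence probe sets. Slc2a1 therefore reached 2-fold in some settings only, and its difference ranged from -1.03 to -0.89. None of the 17 changed direction in an alternative that kept it. Slc35g3 and Slc5a6, below the floor, joined with a floor of log2 4. Of 320 recomputed values of the 38 solute carriers named by the rule, 305 moved by less than that SD; the larger moves were mostly those of genes with 1 value below the floor. No paired analysis was possible because each genotype has 1 array. For the same reason no replicate could be left out. Signal limits the comparison to the 90 genes above the floor. For the 136 others a difference was not measurable on these arrays.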
